A study of Mus musculus with 8 samples.

Results

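The fetal gene programme of cardiac hypertrophy was examined through 9 genes, chosen by name as its usual readouts, of the 25929 genes listed for the hearts of this series. These are Nppa, Nppb, Myh6, Myh7, Acta1, Ankrd1, Xirp2, Rcan1 and Fhl1. Messenger RNA was sequenced from 8 mouse hearts in 4 groups of 2: wild-type littermates of the C57BL/6 strain after sham surgery (WT-Sham) or transverse aortic constriction (WT-TAC), and fat-1 transgenic mice after the same operations (Fat1-Sham and Fat1-TAC). In all groups the chest was opened, and in the TAC groups the aorta was also narrowed by a suture, which puts the left ventricle under pressure overload. Fat-1 mice carry the n-3 fatty acid desaturase of Caenorhabditis elegans, which makes n-3 from n-6 polyunsaturated fatty acids. The promoter that drives the transgene is not given in the sources used here. All animals were adult and ate a regular rodent diet. The labels name the tissue as ventricular, whereas the study's methods name the whole heart.

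Before birth the rodent ventricle makes natriuretic peptides, the slow beta-myosin heavy chain and skeletal alpha-actin, and most of these are turned down in the adult ventricle. Pressure overload is known to bring them back, together with stretch-responsive proteins of the sarcomere and the Z-disc. Nppa is also a normal product of the adult atria, so that its level in a heart sample depends on how much atrium the sample holds.

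The 8 libraries held 14163994 to 21218331 fragments, a number recovered from the deposited FPKM values, which are fragment counts scaled by gene length and library size. All 15 ventricular cardiomyocyte markers were above 0 in every library. WT-TAC1 stood apart. Its 8 thymocyte markers summed to 1721 FPKM against 0.926 to 2.76 FPKM in the other 7 libraries, its skeletal muscle markers to 189 FPKM against 11.1 to 21 FPKM, and its cardiomyocyte markers to 25794 FPKM against 46753 to 60226 FPKM. Airway epithelium markers summed to 1567 FPKM in WT-TAC1, 3941 FPKM in WT-TAC2 and 50.6 FPKM in Fat1-Sham1, and to between 1.38 and 3.01 FPKM in the other 5. Fewer cardiomyocytes, less RNA per cardiomyocyte and a larger part of RNA from other tissue cannot be told apart in such bulk samples. Where leaving out WT-TAC1 or Fat1-Sham1 moved a difference by much, the value without it is given beside it, as a description with no test for genes that are not members. Without WT-TAC1 the WT-TAC group is WT-TAC2 alone, the library with the highest airway sum and the highest adipocyte sum (870 FPKM). Such values are therefore not free of other tissue.

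None of the 9 members passed the criteria of an adjusted p below 0.1 and a change above 1.5-fold in any of 6 comparisons (limma on log2(FPKM + 1), Benjamini-Hochberg adjustment over 14442 genes), and limma-voom on the recovered fragments also called 0 members in each. All 9 passed the filter on low values. At an unadjusted p below 0.05, 2 members stood out in WT-TAC against WT-Sham (Myh7 and Rcan1), 3 in Fat1-TAC against Fat1-Sham (Myh7, Rcan1 and Nppb), 1 in Fat1-TAC against WT-TAC (Nppa), 1 in Fat1-Sham against WT-Sham (Nppb), 0 for the interaction of genotype and surgery, and 2 for TAC against Sham averaged over genotypes (Myh7 and Rcan1). The background of such p-values over all genes was 27.5%, 2.58%, 29.4%, 1.25%, 7.26% and 15.8% in the same order, and that of called genes was 0.935%, 0.00692%, 1.43%, 0.0%, 0.0692% and 0.0%. The libraries did not overlap for 1 member higher and 2 lower in WT-TAC against WT-Sham (52.5% and 7.09% of all genes), for 2 higher and 4 lower in Fat1-TAC against Fat1-Sham (26.8% and 21.5%), for 3 higher and 2 lower in Fat1-TAC against WT-TAC (9.33% and 57.1%), and for 1 each way in Fat1-Sham against WT-Sham (15.5% and 16.5%). Over all 4 TAC and 4 Sham libraries 1 member was higher without overlap and 2 were lower, against 7.82% and 1.45% of all genes. An exact permutation test of 2 against 2 cannot give a two-sided p below 0.33.

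**Figure D1:**
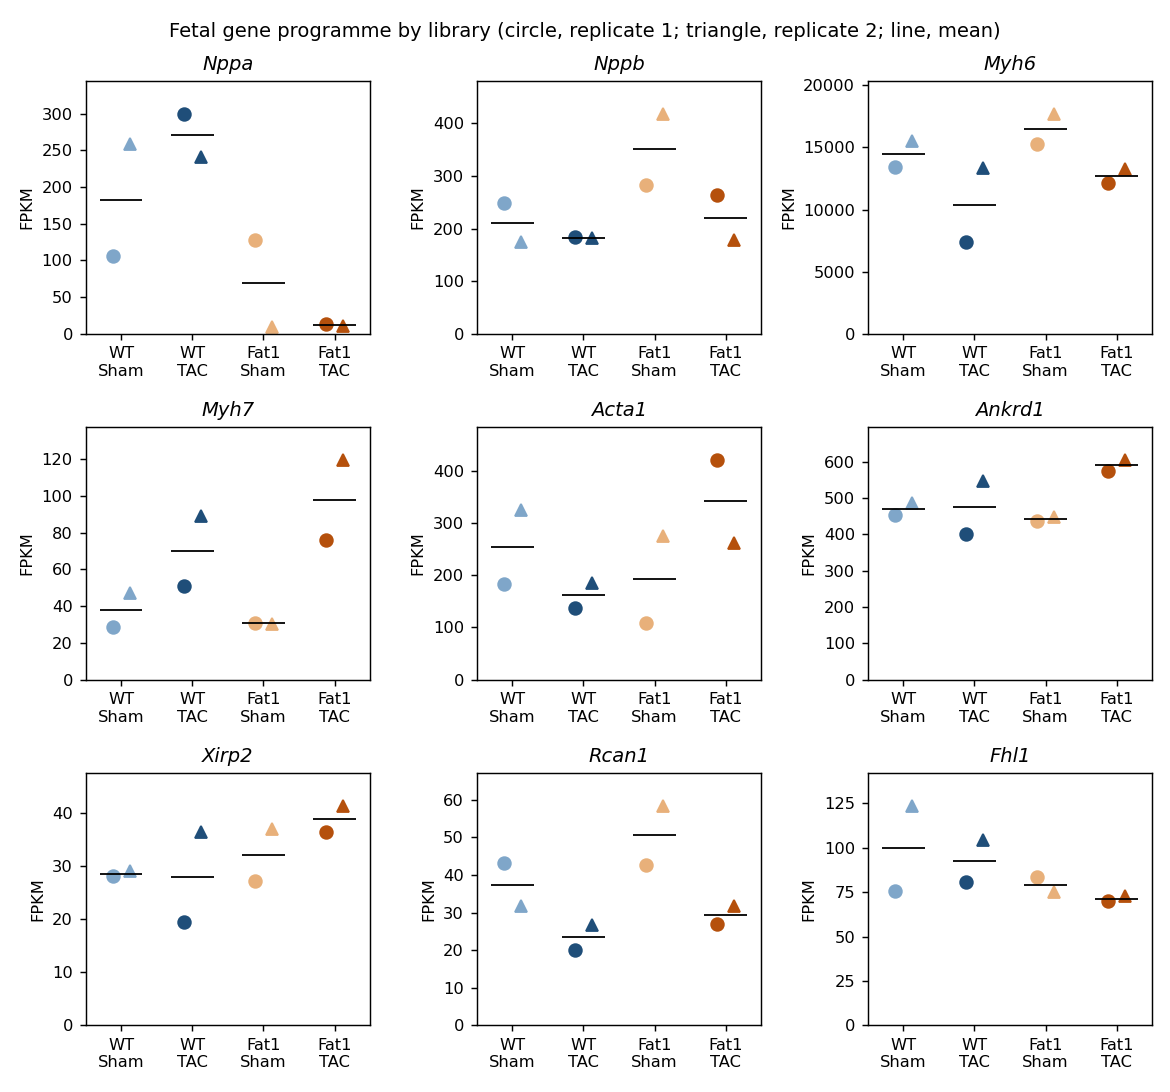
FPKM of the 9 members (y axis, linear, from 0) in each of the 4 groups (x axis), with a circle for replicate 1, a triangle for replicate 2 and a line at the mean of the 2 libraries. Myh7 lies higher in all 4 TAC libraries than in all 4 Sham libraries, Rcan1 and Myh6 lie lower, and Nppa is at or below 13.6 FPKM in Fat1-Sham2 and both Fat1-TAC libraries.

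The myosin heavy chains form the first pair. Myh6 encodes the fast alpha-myosin of the adult mouse ventricle and Myh7 the slow beta-myosin of the fetal ventricle. They are neighbours on the reverse strand of chromosome 14 (Myh6 ENSMUSG00000040752, chr14:54941921-54966927, and Myh7 ENSMUSG00000053093, chr14:54970684-54994626, GRCm38, GENCODE M21), 3756 bases apart. Each gene holds a microRNA in an intron, Mir208a in Myh6 and Mir208b in Myh7. The mature 3p strands (RefSeq, GRCm38.p6) are shown because they carry the same seed, bases 2 to 8, written in capitals:
mmu-miR-208a-3p: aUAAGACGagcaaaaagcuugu
mmu-miR-208b-3p: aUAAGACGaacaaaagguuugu

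The coding sequences of Myh6 and Myh7 were 91.7% identical over 5802 aligned bases. Of the 50-base words of the Myh6 transcript, 23.0% also occur in that of Myh7, so that short reads from these stretches could be assigned to either gene. The first 120 coding bases show a stretch where the genes can be told apart, with the 32 bases that differ in capitals (GENCODE M21):
Myh6: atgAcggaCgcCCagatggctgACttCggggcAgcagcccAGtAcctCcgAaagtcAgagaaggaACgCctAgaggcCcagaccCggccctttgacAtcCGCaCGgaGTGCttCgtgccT
Myh7: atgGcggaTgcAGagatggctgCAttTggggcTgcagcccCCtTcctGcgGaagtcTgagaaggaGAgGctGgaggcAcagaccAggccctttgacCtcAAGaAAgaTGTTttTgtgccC

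Myh7 was at 28.9 and 47.3 FPKM in WT-Sham, 50.7 and 89.0 FPKM in WT-TAC, 31.1 and 30.5 FPKM in Fat1-Sham, and 76.0 and 119.6 FPKM in Fat1-TAC. Every TAC library lay above every Sham library, in either genotype. The log2 fold change of FPKM + 1 was 0.85 ± 0.35 (SE, n = 2 against 2) in WT mice, with a limma adjusted p of 0.181. In fat-1 mice it was 1.60 ± 0.35 with a limma adjusted p of 1. Averaged over genotypes, the difference was 1.22 ± 0.25 (n = 4 against 4), with a 95% interval of 0.64 to 1.81 and a limma adjusted p of 0.177. The groups did not overlap in the higher direction for 7.82% of all genes in that comparison. The response of fat-1 mice exceeded that of WT mice by 0.76 ± 0.50 on the log2 scale, with a 95% interval of -0.41 to 1.92 that includes 0 (limma adjusted p = 0.495). Without WT-TAC1 the WT difference was 1.24, and with Fat1-Sham1 left out as well the difference between genotypes was 0.37. Without WT-TAC1 the averaged difference was 1.42, and it ranged from 1.02 to 1.42 when each library was left out in turn.

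Myh6 was the most abundant member. It was at 13403 and 15522 FPKM in WT-Sham, 7406 and 13333 FPKM in WT-TAC, 15276 and 17694 FPKM in Fat1-Sham, and 12114 and 13231 FPKM in Fat1-TAC. All 4 TAC libraries lay below all 4 Sham libraries, a pattern of 1.45% of all genes. The log2 difference averaged over genotypes was -0.46 ± 0.28 (limma adjusted p = 0.371). WT-TAC1, in which the cardiomyocyte markers were low, held the lowest value, and without it the averaged difference was -0.25 and the WT difference -0.11. With WT-TAC2 left out, so that WT-TAC1 alone stood for the group, the WT difference was -0.96 and passed the criteria. A large part of all genes passed them in that fit. The part of the other tissues in WT-TAC1 in the Myh6 values was not tested.

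The share of Myh7 in the sum of both messages was computed for each library. Slow skeletal muscle also makes Myh7, and the part of the skeletal muscle RNA in WT-TAC1 was not tested. Myh7 made up 0.569% and 0.804% of the Myh6 plus Myh7 fragments in WT-Sham, 1.79% and 1.74% in WT-TAC, 0.538% and 0.456% in Fat1-Sham, and 1.64% and 2.35% in Fat1-TAC. The 4 TAC libraries averaged 1.88% and the 4 Sham libraries 0.591%, a ratio of 3.18, and the groups did not overlap. Skeletal muscle markers summed to 189 FPKM in WT-TAC1 and 21 FPKM in WT-TAC2, which does not tell how much slow muscle each held. From FPKM the shares were 0.716% and 0.223%, with a ratio of 3.20. The level differed with the unit because the gene length behind the deposited Myh6 values was 1554 bases, 3.93 times shorter than the longest annotated transcript of 6113 bases, while that behind Myh7 was 4129 of 6230 bases.

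Transcripts of the Myh7 locus outside the messenger RNA lay in the same order by group mean, although WT-TAC1 was below WT-Sham2 for both transcripts described here. Mir208b was at 108 and 193 FPKM in WT-Sham, 162 and 279 FPKM in WT-TAC, 111 and 103 FPKM in Fat1-Sham, and 259 and 286 FPKM in Fat1-TAC. It was among the 3 genes whose pattern was most like that of Myh7 (r = 0.968 over 8 libraries). A value for a 22-base microRNA in a library of this kind may come from reads of the host intron, which share its position. Mhrt, a long non-coding RNA transcribed antisense to Myh7 and overlapping its exons, was at 29.7 to 49.3 FPKM in Sham and 45.4 to 76.7 FPKM in TAC libraries. Mhrt was named after its values were seen. The library kit named in the methods does not mark strand and the counting is not described, so reads from the overlapping exons of Mhrt and Myh7 cannot be told apart.

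**Figure D2:**
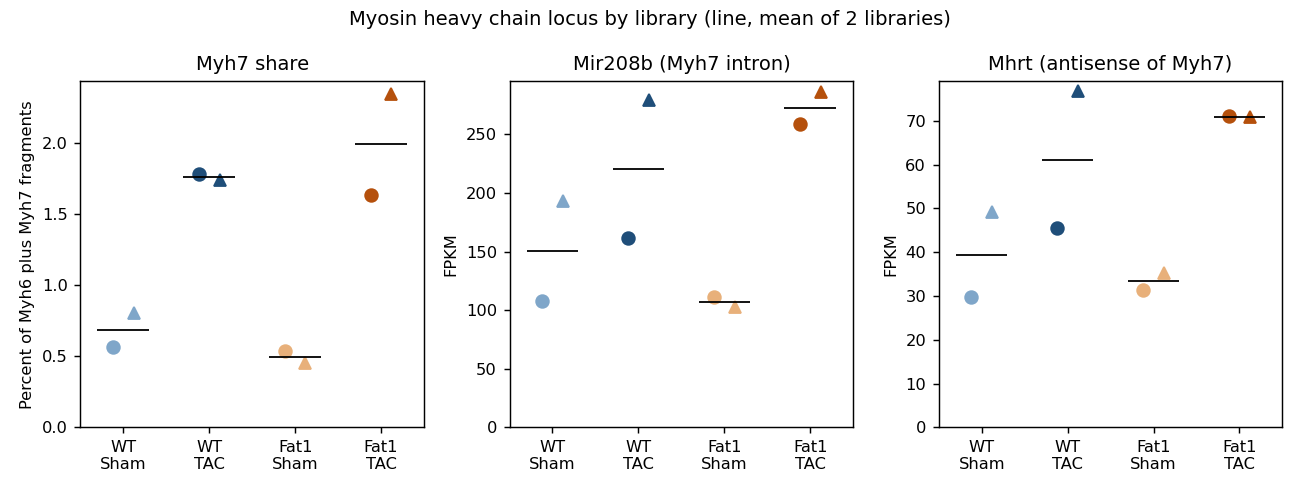
Myh7 as a percent of Myh6 plus Myh7 fragments, and FPKM of Mir208b and Mhrt (y axes, linear, from 0), in the 4 groups (x axis), with a circle for replicate 1, a triangle for replicate 2 and a line at the mean. The Myh7 share is 0.456% to 0.804% in Sham and 1.64% to 2.35% in TAC libraries, without overlap.

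The natriuretic peptides form the second pair. Nppa encodes atrial natriuretic peptide and Nppb brain natriuretic peptide, hormones of the stretched heart that lower blood volume and pressure. The genes lie on the forward strand of chromosome 4 (Nppa ENSMUSG00000041616, chr4:148000722-148002079, and Nppb ENSMUSG00000029019, chr4:147985788-147987205, GRCm38), 13516 bases apart. The 250 bases before each RefSeq start are shown because both genes are textbook targets of GATA factors, with the GATA motifs AGATAA and TGATAA and the M-CAT motif CATTCC, which TEAD factors bind, in capitals on either strand:
Nppa, chr4:148000472-148000721: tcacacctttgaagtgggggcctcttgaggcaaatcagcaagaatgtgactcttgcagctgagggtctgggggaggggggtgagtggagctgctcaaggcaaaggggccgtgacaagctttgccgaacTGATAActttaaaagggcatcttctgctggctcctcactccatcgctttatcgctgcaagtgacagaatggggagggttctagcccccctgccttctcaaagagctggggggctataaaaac
Nppb, chr4:147985650-147985899: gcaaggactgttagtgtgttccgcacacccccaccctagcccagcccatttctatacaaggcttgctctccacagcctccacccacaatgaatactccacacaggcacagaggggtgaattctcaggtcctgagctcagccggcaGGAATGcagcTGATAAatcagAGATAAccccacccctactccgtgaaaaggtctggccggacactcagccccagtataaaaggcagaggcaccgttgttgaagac

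Nppa held 1 GATA motif, from -122 to -117 relative to the start. Nppb held 2, from -95 to -90 and from -84 to -79, beside an M-CAT motif from -105 to -100. The GATA motifs occurred in 16.6% and the M-CAT motif in 12.6% of 32851 promoters of this length. The GENCODE model of Nppb begins upstream of the RefSeq start, inside the stretch shown.

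Nppa was at 106 and 259 FPKM in WT-Sham, 299 and 241 FPKM in WT-TAC, 128 and 9.04 FPKM in Fat1-Sham, and 13.6 and 11.1 FPKM in Fat1-TAC. Thus 5 of 8 libraries were high, namely all WT libraries and Fat1-Sham1, and the other 3 were low. Both Fat1-TAC libraries lay below both WT-TAC libraries, as was true of 57.1% of all genes. The log2 difference was -4.34 ± 1.05 (limma adjusted p = 0.134). WT-TAC against WT-Sham gave 0.70 ± 1.05 (limma adjusted p = 0.638). That error exceeds the difference, but it is pooled over all 4 groups and so takes in the wide spread of Fat1-Sham. It is therefore the same for every comparison of 2 groups. Fat1-Sham against WT-Sham gave -2.21 ± 1.05 (limma adjusted p = 1), and the interaction -2.13 ± 1.48 (limma adjusted p = 0.498).

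Of 7 atrial markers, 4 (Myl4, Myl7, Sln and Dkk3) were higher in each of the 5 libraries with high Nppa than in the other 3. Myl4, the atrial essential light chain, was at 335 and 1190 FPKM in WT-Sham, 834 and 844 FPKM in WT-TAC, 380 and 5.97 FPKM in Fat1-Sham, and 16.9 and 10.3 FPKM in Fat1-TAC. Summed over Myl4, the atrial regulatory light chain Myl7 and sarcolipin (Sln), the level was 917 to 3542 FPKM in the 5 libraries with high Nppa and 16.7 to 39.1 FPKM in the 3 with low Nppa. The other 3 markers overlapped: Bmp10 was at 0.073 FPKM in WT-Sham2 and 0.08 FPKM in Fat1-Sham2, Nr2f2 at 6.32 FPKM in WT-Sham1 and 7.38 FPKM in Fat1-TAC2, and Clu at 567 FPKM in WT-TAC1 and 578 FPKM in Fat1-Sham2. All 7 atrial markers were above 0 in every library, and the summed list was at 1529 and 4701 FPKM in WT-Sham, 2798 and 3044 FPKM in WT-TAC, 1901 and 602 FPKM in Fat1-Sham, and 579 and 504 FPKM in Fat1-TAC. The 3 genes with the pattern most like Nppa, of 9488 searched, were Myl4, Mybphl and Myl7. No correlation is given for them because the libraries fall into separate clusters. The part of atrial tissue in the Nppa values was not tested.

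Among the 3 libraries low in atrial markers, Nppa was at 9.04 FPKM in the Sham library and 13.6 and 11.1 FPKM in the TAC libraries. The sum of Myl4, Myl7 and Sln lay in the same order, at 16.7 FPKM in Fat1-Sham2, 39.1 FPKM in Fat1-TAC1 and 24.5 FPKM in Fat1-TAC2. With Fat1-Sham1 left out the TAC difference of Nppa in fat-1 mice was 0.41 on the log2 scale, against -1.44 ± 1.05 with it. The sign thus turned, and the part of remaining atrial tissue in this difference was not tested. Fat1-Sham against WT-Sham was then -4.05, and the interaction with WT-TAC1 also left out was -0.13. The difference between Fat1-TAC and WT-TAC was -4.19 with WT-TAC1 and Fat1-Sham1 both left out, where it passed the criteria, as it did in 5 further settings.

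**Figure D3:**
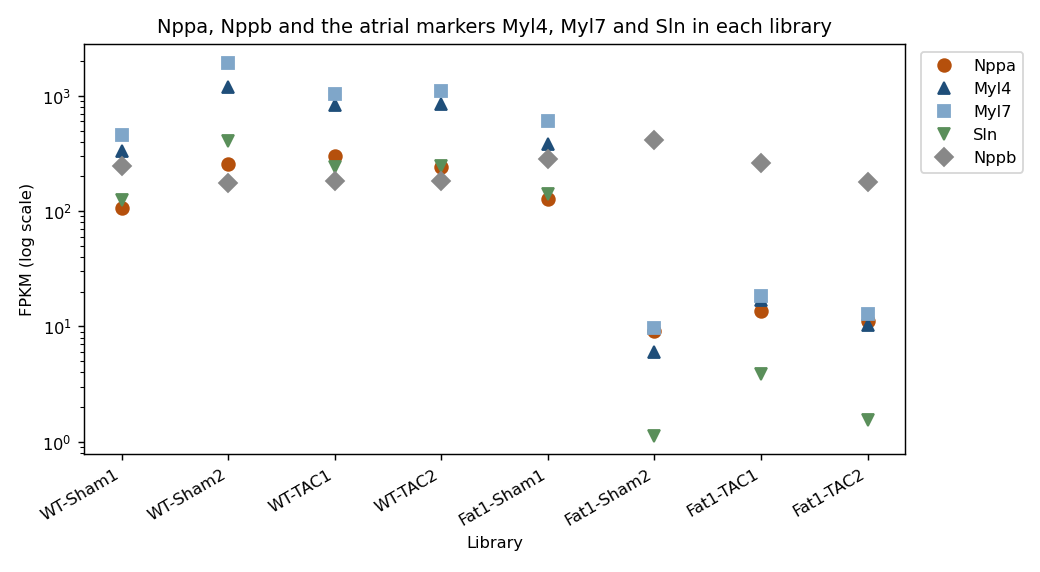
FPKM on a log scale (y axis) of Nppa, Nppb and the atrial markers Myl4, Myl7 and Sln in each of the 8 libraries (x axis), with a symbol for each gene. Nppa and the 3 atrial markers are low together in Fat1-Sham2, Fat1-TAC1 and Fat1-TAC2, where Nppb stays between 178 and 418 FPKM.

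Nppb did not follow this split. It was at 248 and 175 FPKM in WT-Sham, 183 and 182 FPKM in WT-TAC, 284 and 418 FPKM in Fat1-Sham, and 264 and 178 FPKM in Fat1-TAC. The highest library was a Sham library. TAC against Sham gave log2 differences of -0.19 ± 0.28 in WT mice (limma adjusted p = 0.635) and -0.67 ± 0.28 in fat-1 mice (limma adjusted p = 1). The fat-1 Sham libraries both lay above the WT Sham libraries (log2 difference 0.72 ± 0.28, limma adjusted p = 1), a pattern of 15.5% of all genes. By group mean the order was Fat1-Sham, Fat1-TAC, WT-Sham and WT-TAC, and the last 3 overlapped. In WT mice the sign turned to 0.33 with scaling to cardiomyocyte markers and to 0.065 without WT-Sham1.

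Acta1 (ENSMUSG00000031972, chr8:123891769-123894751, reverse strand) encodes skeletal alpha-actin, the fetal partner of the cardiac actin Actc1. It was at 183 and 326 FPKM in WT-Sham, 138 and 185 FPKM in WT-TAC, 109 and 276 FPKM in Fat1-Sham, and 421 and 262 FPKM in Fat1-TAC. Libraries of the same group differed widely, and neighbouring groups in the order of their means all overlapped. Both Fat1-TAC libraries lay above both WT-TAC libraries (log2 difference 1.05 ± 0.48, limma adjusted p = 0.178), as did 9.33% of all genes. The TAC differences pointed opposite ways, -0.61 ± 0.48 in WT and 0.93 ± 0.48 in fat-1 mice, and their difference was 1.54 ± 0.68 (limma adjusted p = 0.495). Without Fat1-Sham1, which held the lowest Acta1 value, the fat-1 difference was 0.27, without WT-TAC1 the WT difference was -0.40, and with both left out the difference between genotypes was 0.66 (limma adjusted p = 0.853). The coding sequences of Acta1 and Actc1 were 86.3% identical, with 0.0% of 50-base words shared between the transcripts. Actc1 was at 8322 and 10647 FPKM in WT-Sham and 4032 and 7594 FPKM in WT-TAC, and at 8831, 13503, 8611 and 8221 FPKM in the fat-1 libraries. Smooth muscle Acta2 was at 47.7 to 212 FPKM in Sham and 41.4 to 178 FPKM in TAC libraries.

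Ankrd1 encodes a titin-binding ankyrin repeat protein that also enters the nucleus (ENSMUSG00000024803, chr19:36111961-36120099, reverse strand). Its level was 452 and 486 FPKM in WT-Sham, 401 and 549 FPKM in WT-TAC, 438 and 449 FPKM in Fat1-Sham, and 575 and 606 FPKM in Fat1-TAC. The 2 Fat1-TAC libraries were the highest of all. The log2 difference was 0.00 ± 0.19 in WT mice (95% interval -0.44 to 0.44, limma adjusted p = 0.998) and 0.41 ± 0.19 in fat-1 mice (limma adjusted p = 1). In WT mice its sign depended on the scaling, at -0.48 with median-of-ratios scaling, and on the library left out.

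Xirp2 encodes a Xin repeat protein of the intercalated disc (ENSMUSG00000027022, chr2:67446002-67526614, forward strand). It was at 28.2 and 29.0 FPKM in WT-Sham, 19.5 and 36.5 FPKM in WT-TAC, 27.3 and 36.9 FPKM in Fat1-Sham, and 36.5 and 41.4 FPKM in Fat1-TAC. The WT-TAC libraries thus enclosed the WT-Sham libraries, and the log2 difference was -0.09 ± 0.29 in WT (limma adjusted p = 0.825) and 0.28 ± 0.29 in fat-1 mice (adjusted p = 1, limma). Without WT-TAC1 the WT difference was 0.34, and without Fat1-Sham1 the fat-1 difference was 0.07.

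Rcan1 encodes a calcineurin regulator, an isoform of which is made when calcineurin activates NFAT (ENSMUSG00000022951, chr16:92391953-92470867, reverse strand). It was at 43.2 and 31.68 FPKM in WT-Sham, 20.1 and 26.7 FPKM in WT-TAC, 42.8 and 58.5 FPKM in Fat1-Sham, and 26.9 and 31.65 FPKM in Fat1-TAC. All 4 TAC libraries lay below all 4 Sham libraries, but WT-Sham2 and Fat1-TAC2 were nearly equal. The log2 difference was -0.65 ± 0.24 in WT (limma adjusted p = 0.176), -0.76 ± 0.24 in fat-1 mice (limma adjusted p = 1) and -0.70 ± 0.17 averaged over genotypes (limma adjusted p = 0.221). Without WT-TAC1 the WT difference was -0.46. The values are totals over 7 annotated transcripts, so the calcineurin-dependent isoform was not measured on its own.

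Fhl1 encodes a LIM protein that binds titin at the sarcomere (ENSMUSG00000023092, chrX:56731787-56793346, forward strand). Its level was 75.5 and 124 FPKM in WT-Sham, 81.0 and 104 FPKM in WT-TAC, 83.8 and 74.9 FPKM in Fat1-Sham, and 70.0 and 72.9 FPKM in Fat1-TAC. Between surgeries it had log2 differences of -0.07 ± 0.25 in WT (95% interval -0.65 to 0.51) and -0.15 ± 0.25 in fat-1 mice (95% interval -0.73 to 0.43), and the WT sign turned when WT-Sham2 or WT-TAC1 was left out. Without Fat1-Sham1 the fat-1 difference was -0.07.

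**Figure D4:**
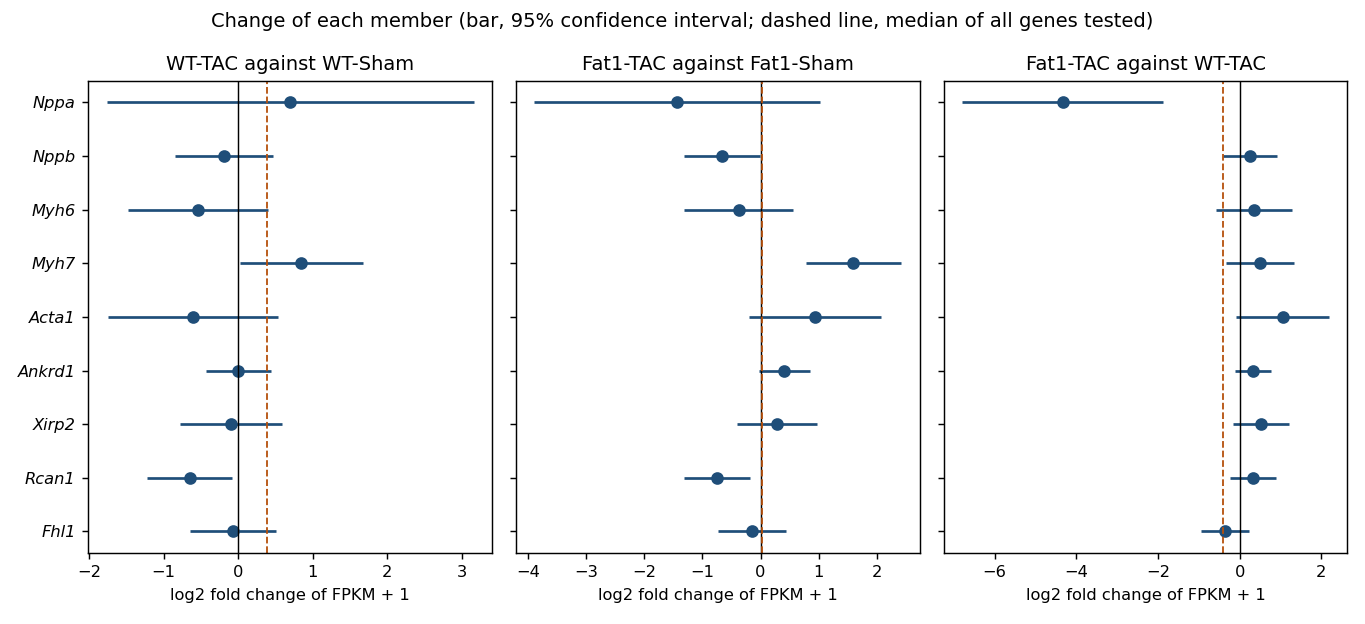
Log2 fold change of FPKM + 1 (x axis) of the 9 members (y axis) in 3 comparisons, with the 95% confidence interval as a bar, a solid line at 0 and a dashed line at the median of all 14442 genes tested. Myh7 lies at 0.85 in WT and 1.60 in fat-1 mice, and Nppa at -4.34 in Fat1-TAC against WT-TAC.

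The members differed in direction. In WT-TAC against WT-Sham 3 were higher and 6 lower, with a median log2 difference of -0.09 against 0.39 over all genes. In fat-1 mice 4 were higher and 5 lower, with a median of -0.15 against 0.02. Myh6, the myosin of the adult ventricle, is counted with the other members here and was lower in both comparisons. Median-of-ratios scaling brought the median of all genes in the WT comparison to -0.02, with 2 members higher and 7 lower, and scaling to cardiomyocyte markers brought it to 0.84, with 6 higher and 3 lower. Fat1-TAC against WT-TAC had 7 members higher and 2 lower, with a median of 0.33 against -0.40 over all genes. The split became 1 higher and 8 lower with cardiomyocyte scaling, where the median of all genes was -0.95. These comparisons share libraries and are not independent.

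Each member was also set against the geometric mean of the 15 cardiomyocyte markers, which was 974 FPKM in WT-TAC1 and 1766 to 2118 FPKM elsewhere. On that scale Myh7, Ankrd1 and Xirp2 lay higher in all 4 TAC than in all 4 Sham libraries, a pattern of 5.5% of all genes. Myh7 was at 1.44% to 2.64% of the marker mean in Sham and 3.90% to 5.69% in TAC libraries. Ankrd1 was at 21.2% to 27.1% in Sham and 28.8% to 41.2% in TAC, and Xirp2 at 1.42% to 1.75% and 1.87% to 2.07%. Rcan1 overlapped, at 1.77% to 2.76% in Sham and 1.38% to 2.06% in TAC, and so did Myh6, at 684% to 866% and 622% to 760%. No test was made on this scale.

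**Figure D5:**
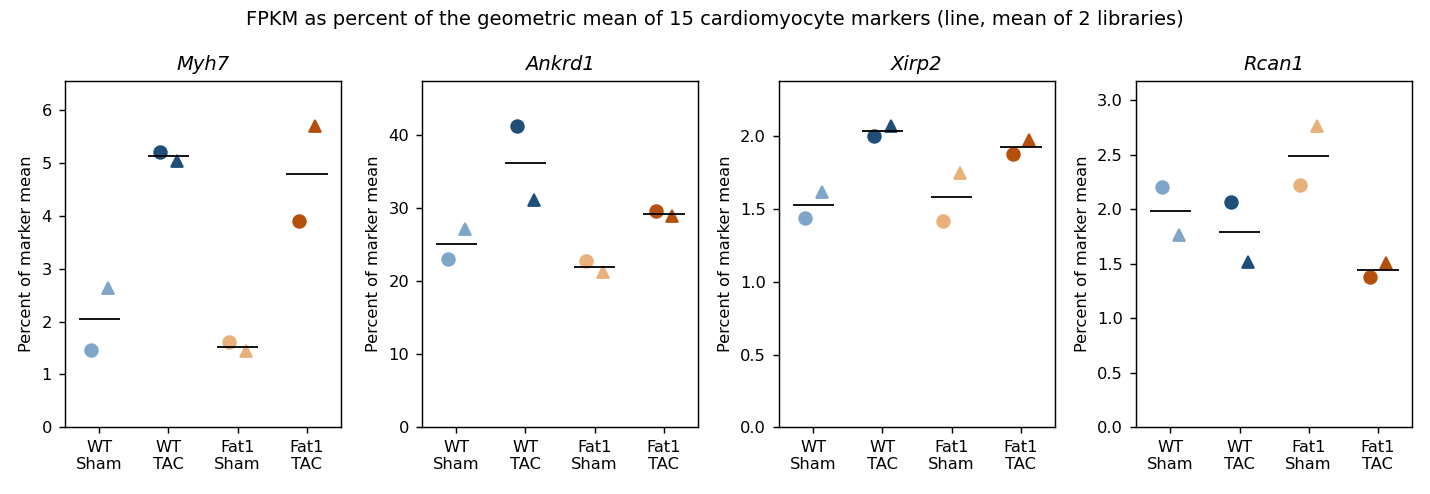
FPKM of Myh7, Ankrd1, Xirp2 and Rcan1 as a percent of the geometric mean of 15 ventricular cardiomyocyte markers (y axis, linear, from 0) in the 4 groups (x axis), with a circle for replicate 1, a triangle for replicate 2 and a line at the mean. Ankrd1 is at 21.2% to 27.1% in Sham and 28.8% to 41.2% in TAC libraries, and Rcan1 overlaps between them.

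Genes that act with the members were taken from 4 lists, and 0 of their tested genes were called in either TAC comparison (limma). Counts at an unadjusted p below 0.05 are to be read against 27.5% of all genes in WT and 2.58% in fat-1 mice. In the natriuretic peptide system, 9 of 11 genes were tested, with 1 at an unadjusted p below 0.05 in each genotype. This was Pde5a, which breaks down cyclic GMP, in WT mice (log2 difference 1.13 ± 0.28, limma adjusted p = 0.175) and Corin, the protease that activates pro-atrial natriuretic peptide, in fat-1 mice (-0.54 ± 0.22, limma adjusted p = 1). Corin was at 60.7 and 75.5 FPKM in WT-Sham and 40.6 and 61.5 FPKM in WT-TAC, and at 65.6 and 65.1 FPKM in Fat1-Sham and 46.0 and 43.5 FPKM in Fat1-TAC.

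Of 17 calcineurin and NFAT genes, 7 were at an unadjusted p below 0.05 in WT mice (27.5% of all genes) and 0 in fat-1 mice (2.58% of all genes). The lowest WT differences were those of Myoz2 (-0.67 ± 0.28), a calcineurin-binding Z-disc protein, and Rcan2 (-0.66 ± 0.26), and the highest those of Nfatc3 (1.52 ± 0.77) and Cabin1 (0.90 ± 0.24). Nfatc3 was at 66.6 FPKM in WT-TAC1, the library with thymocyte markers, and at 6.69 to 8.82 FPKM in the other 7 libraries. Myoz2 was lowest in the same library, at 306 FPKM. Without WT-TAC1 the WT differences were 0.11 for Nfatc3, 0.54 for Cabin1, -0.26 for Myoz2 and -0.27 for Rcan2.

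Among 21 transcription factors of the programme, 3 were at an unadjusted p below 0.05 in WT mice (27.5% of all genes) and 1 in fat-1 mice (2.58% of all genes). Gata4 (-0.52 ± 0.29) and Nkx2-5 (-0.48 ± 0.28), regulators of cardiac muscle genes, had the lowest differences in WT mice, and Med13, a mediator subunit and target of miR-208, was at 1.17 ± 0.32 beside Nfatc3. These rested on WT-TAC1 in large part, since without it Gata4 was at -0.04, Nkx2-5 at -0.03 and Med13 at 0.64. In fat-1 mice serum response factor (Srf) was at -0.46 ± 0.15 (limma adjusted p = 1). Srf measured 35.8 and 39.1 FPKM in Fat1-Sham and 26.6 and 27.1 FPKM in Fat1-TAC.

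Of 20 relatives that respond to load, 18 were tested, with 0 at an unadjusted p below 0.05 in WT and 2 in fat-1 mice. These 2 were Tcap, the titin cap protein, and Myh7b, a further slow myosin. Tcap was at 933 and 773 FPKM in Fat1-Sham and 2269 and 1955 FPKM in Fat1-TAC (log2 difference 1.31 ± 0.32, limma adjusted p = 1). Myh7b was at 28.0 and 26.9 FPKM in Fat1-Sham and 50.1 and 52.1 FPKM in Fat1-TAC (0.87 ± 0.32, limma adjusted p = 1), whereas the WT-TAC libraries, at 19.9 and 41.3 FPKM, enclosed the WT-Sham libraries at 32.0 and 24.1 FPKM. Tcap was at 1012 and 1624 FPKM in WT-Sham and 1158 and 1836 FPKM in WT-TAC. The WT differences were 0.19 for Tcap and 0.05 for Myh7b, and without WT-TAC1 they were 0.52 and 0.56.

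The genes most like each member in pattern were searched among 9488 genes with a mean of at least 5 FPKM, by Pearson r of log2(FPKM + 1) over the 8 libraries, as a description. Myh6 was close to Atp2a2 (0.994), the calcium pump of the sarcoplasmic reticulum, and Mfn2 (0.993), a mitochondrial fusion protein, both lowest in WT-TAC1. Myh7 was most like 9530082P21Rik (0.976), Scarf1 and Mir208b (both 0.968). Rcan1 was nearest to Clasp1 (0.973), Kcmf1 and Tnfrsf12a, and Fhl1 to Pcolce (0.974), Nudt4 and Sdc2. Ankrd1 was nearest to Rasip1 (0.977), Gm29237 and Cpeb2, and Xirp2 to Pcbp4 (0.959), Hspg2 and Adamtsl5. The nearest genes had lower r for Acta1 (Gmnn 0.939, Acy1 and Iigp1) and for Nppb (Dhx32 0.927, Gm44349 and Rps27rt). Tissue composition differs between these libraries, so that the values say nothing of shared control.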

How the data were processed

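RNA of 8 mouse hearts was sequenced as paired-end libraries. The deposited file holds FPKM values per gene, made by the authors, with HISAT2 and mm10/GRCm38 named in the submitters' processing notes. The counting program, its versions and the annotation are not given in the sources used here, and 4 blank lines were dropped. Gene lengths and whole fragments were recovered from the FPKM steps: 100% of genes came out whole within 0.001 fragments, against 0% of 1000 randomised genes. The recovered length equalled that of an annotated transcript for 9213 of 25929 genes. Depth was 14163994 to 21218331 fragments.

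The filter asked for 1 FPKM in any 2 libraries, which 14442 genes reached, and log2(FPKM + 1) was fitted with limma 3.58.1 (with an intensity trend) in R 4.3.3, using all 4 groups. A gene was called at an adjusted p below 0.1 and a change above 1.5-fold, as in the study's methods. Fold changes of low genes are understated by the pseudocount. Libraries of a group are separate samples by their labels. The members, lists and tests were chosen with earlier results of these data known. Named were all 9 members, of each list the called genes or otherwise the 2 highest and 2 lowest (some of which the text gives), and the 3 genes most like each member, 1 of which is not reported here. The fit was tested on simulated data, where it called 59% of genes changed 2-fold and 100% of genes changed 4-fold in WT-TAC against WT-Sham with 14442 genes. It also called 32 unchanged genes there. Every simulated gene had a dispersion of 0.0333 and every library the same composition, so these shares need not hold for the members. Alternatives were other scalings, pseudocounts, filters, limma-voom on fragments, a replicate block and leaving out libraries. Promoter and microRNA sequences came from RefSeq, which held all 9 members.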

Additional observations from a re-analysis of the deposited data

Results flagged for a closer look

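Ankrd1 was lower in both Fat1-Sham libraries (438 and 449 FPKM) than in both WT-Sham libraries (452 and 486 FPKM). It was higher in both Fat1-TAC libraries (575 and 606 FPKM) than in both WT-TAC libraries (401 and 549 FPKM). The genotypes thus lay in opposite order under the 2 operations. Of all genes, 16.5% were lower without overlap in the Sham comparison and 9.33% higher in the TAC comparison. The log2 difference between the Sham groups was only -0.08 ± 0.19. The interaction of genotype and surgery was 0.411 ± 0.262 on the log2 scale, with a limma adjusted p of 0.495, and did not pass the threshold. It was -0.11 with scaling to cardiomyocyte markers. Of the alternatives run, it passed the threshold only without WT-TAC2, where a large part of all genes did so too.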

How the results depend on the processing

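The number of members called, 0 in each reported comparison, was also 0 in Fat1-TAC against Fat1-Sham and in Fat1-Sham against WT-Sham under every alternative run. It was 1 in Fat1-TAC against WT-TAC (Nppa) with cardiomyocyte marker scaling, with only the groups compared, and with WT-TAC1 and Fat1-Sham1 both left out (an alternative chosen after seeing the data), and 1 averaged over genotypes (Myh7) with cardiomyocyte marker scaling. Leaving out each library in turn gave 0 to 2 in WT-TAC against WT-Sham, 0 to 4 in Fat1-TAC against WT-TAC, 0 to 3 for the interaction and 0 to 3 averaged over genotypes. The highest counts came without WT-TAC2, where WT-TAC1 alone stood for its group, was assumed to vary like the other groups, and 6497 genes were called higher and 911 lower in WT mice against 133 and 2 in the full fit.

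Of 550 recomputed values of single members, 517 kept their direction and side of the threshold, 16 came past it and 17 turned sign. In WT-TAC against WT-Sham, Ankrd1 was -0.48 with median-of-ratios scaling, Myh6 0.15 with quantile normalization, and Nppb, Xirp2 and Fhl1 were 0.33, 0.40 and 0.44 with cardiomyocyte scaling. With both libraries left out Xirp2 was 0.34, Fhl1 0.11 and, in fat-1 mice, Nppa 0.41. With cardiomyocyte scaling Myh7 was -0.12 in Fat1-TAC against WT-TAC and Ankrd1 -0.11 in the interaction. Leaving out single libraries gave ranges of -0.44 to 0.065 for Nppb, -0.22 to 0.23 for Ankrd1, -0.53 to 0.34 for Xirp2 and -0.43 to 0.28 for Fhl1 in WT mice, and -3.28 to 0.41 for Nppa in fat-1 mice. The causes were not tested.

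The TAC minus Sham difference in the Myh7 share was 0.492 percentage points from FPKM, and 0.432 to 0.523 without single libraries. From fragments, which were recovered with the inferred gene lengths but are not divided by them, it was 1.29. Myh7 relative to cardiomyocyte markers differed by 1.41 to 1.71 on the log2 scale without single libraries. A replicate block called 0 members in every comparison (Myh7 averaged over genotypes 1.22, adjusted p 0.252 by limma). The numbers do not pair the animals: correlations of same-numbered deviations were -0.135 to 0.024. With 2 libraries a group, 2-fold changes were called in 59% of simulated cases, at a dispersion of 0.0333 for every gene. Members with a wider spread, such as Nppa, were not simulated.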
